A study of Rattus norvegicus with 8 samples.

Results

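Hsp90ab1, Eif4b, Rplp1, Rpl13a, Actb and Gusb are 6 genes of chaperone, translation and reference function whose mRNAs have probes on a rat circular RNA array. They were chosen by probe: Hsp90ab1 and Eif4b by probe name, and Actb, Gusb, Rplp1 and Rpl13a as the custom probes of 1 design whose accession is the rat RefSeq mRNA of that gene. They make up 6 of the 62 mRNA probes and of 14227 probes in all that are not controls. Each has 10 spots on every array. The rule for the probes uses no measured value, but the genes were chosen with earlier results of these data known.

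The study compared penile tissue of rats in 4 samples titled Control and 4 titled Model. Its title names diabetes-induced erectile dysfunction, but the labels do not state that Model is this condition, and strain, age and the way diabetes was induced are not given in the sources used here. The labels describe an apomorphine test at 100 μg/kg with 30 min of observation, in which rats without an erectile response were classed as affected. RNA of all 8 samples, Control included, was digested with RNase R, labelled with Cy3 by random priming and hybridised to 1 array per sample. Whether the samples come from separate animals is not stated, so every p-value measures only the spread between these arrays, which may be technical.

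RNase R is an exoribonuclease that degrades linear RNA from a free end and leaves circular RNAs (circRNAs), which have no end. A probe for an mRNA therefore reads what digestion left of a linear transcript, together with any circular RNA that holds the probed sequence. Actb and Gusb are widely used as references in expression studies, and Hsp90ab1, Rplp1 and Rpl13a also serve in that role. The signal of such a gene here is a level of leftover RNA relative to the circRNA probes around it, and a difference between groups need not follow its mRNA in tissue. In tissue RNA, fewer cells of a type and less RNA per cell cannot be told apart either.

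All 80 spots of each gene, 10 on each of 8 arrays, were well above background, and none was saturated or left out. All 6 genes passed the filter on dim probes. The arrays differed in overall brightness, with a 75th percentile of 47.9 to 127 intensity units, and the local background was 12.5 to 15 units. Scanning took 3 runs, of which 1 held Control 1, 1 held Control 2 to 4 and 1 held the 4 Model arrays. No run holds both groups, so scanning run and group cannot be told apart in any comparison below. Of the 62 mRNA probes 39 have a symbol, and none of these is for 1 of the 26 marker genes listed for penile tissue. Probes without a symbol could not be matched to a marker, so the tissue label was not checked. Unless another scale is named, a level below is the log2 processed signal of a probe less the 75th percentile of its array, called the scaled level, and means are given with the SD over 4 arrays.

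In Model, Hsp90ab1 had a higher scaled level and Rpl13a a lower one, while Eif4b, Rplp1, Actb and Gusb did not pass the test. By limma with Benjamini-Hochberg adjustment over 13646 probes, 2 of the 6 genes had an adjusted p under 0.05, 1 higher and 1 lower. Over all probes 47.1% passed, with 22.1% higher and 25% lower, and over the 61 mRNA probes tested 45.9% passed, with 14.8% higher and 31.1% lower. The share among the 6 genes is thus not above the background. Among circRNA probes alone 47.2% passed, 22.1% higher and 25% lower. The median log2 change of the 6 was -0.37, against -0.03 for all probes tested and -0.31 for the mRNA probes. The groups did not overlap for Hsp90ab1 and Rpl13a, or 2 of 6, where 43% of all probes, 43.1% of circRNA probes and 37.7% of mRNA probes show no overlap.

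**Figure D1:**
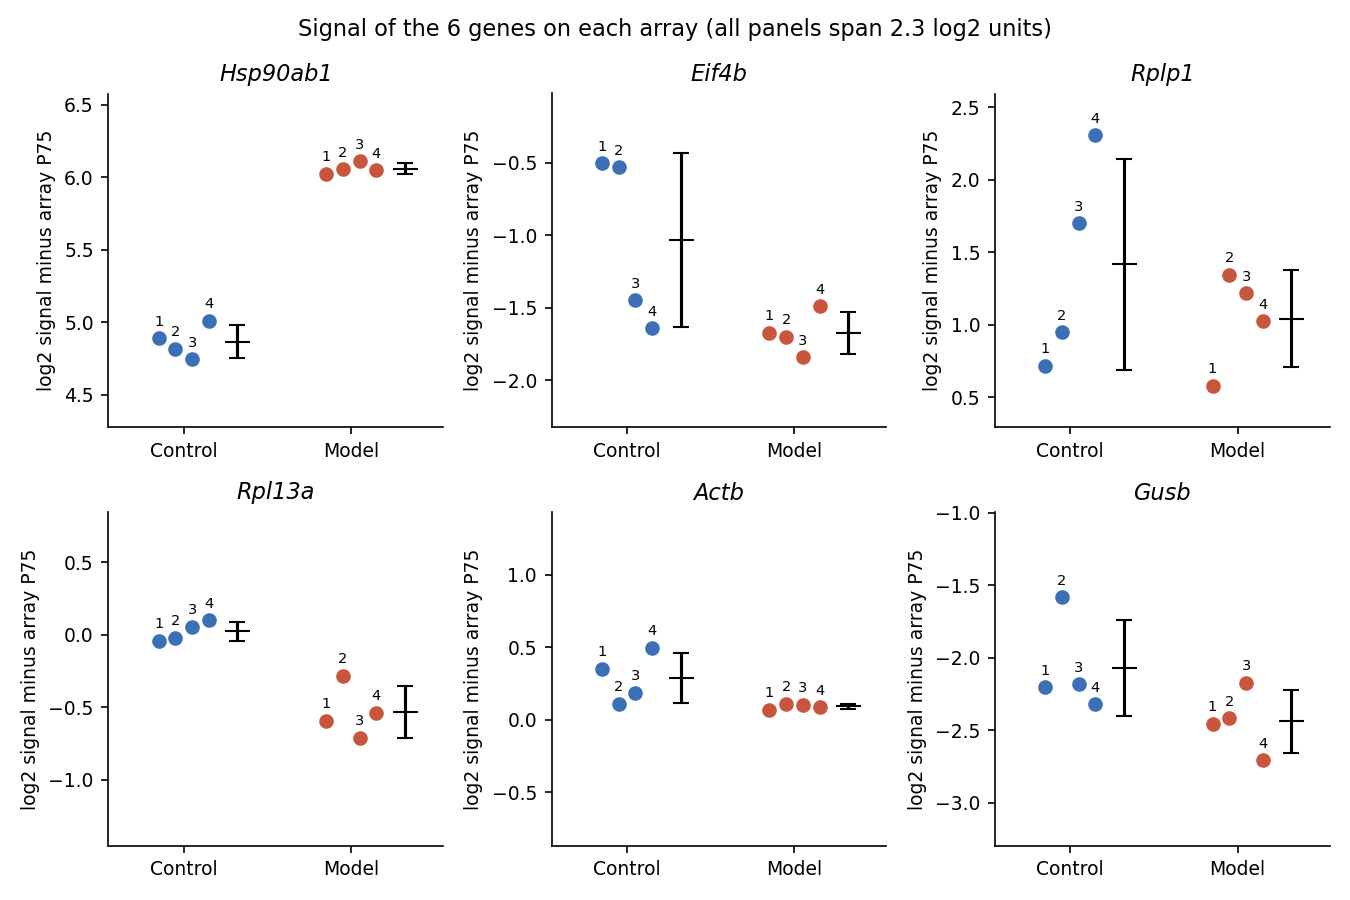
Scaled level of each gene (log2 signal less P75, the 75th percentile of its array) on each array, with Control in blue, Model in red, replicate numbers above the points and the mean ± SD of 4 arrays in black; every panel spans 2.3 log2 units. The Model arrays lie above all Control arrays for Hsp90ab1 and below them for Rpl13a, and the 4 Control arrays spread widely for Eif4b and Rplp1.

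Hsp90ab1 encodes the constitutive cytosolic form of the chaperone HSP90, which folds kinases and steroid receptors. Its processed signal, as the median of 10 spots, was 2067, 1333, 2556 and 4138 intensity units on Control 1 to 4 and 5364, 4395, 3890 and 4426 on Model 1 to 4. Before scaling, Control 4 thus lay within the range of the Model arrays, and Control 4 is also the array with the highest 75th percentile. After scaling, the levels were 4.89, 4.82, 4.75 and 5.01 on the Control arrays and 6.02, 6.06, 6.11 and 6.05 on the Model arrays. Every Model array was higher than every Control array, with a gap of 1.01 between the groups. The mean was 4.87 ± 0.11 in Control and 6.06 ± 0.04 in Model, a rise of 2.29-fold on this scale (log2 change 1.19, SE 0.16, limma adjusted p = 2.29e-04). Quantile normalization turned the change to -0.33 (SE 0.31, limma adjusted p = 0.415), whereas 20 of 21 alternatives kept the rise with an adjusted p under 0.05.

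The place of Hsp90ab1 among the circRNA probes of its own array is near the top, which leaves little room to rise. It was brighter than 99.5%, 99.2%, 99.1% and 98.6% of them on Control 1 to 4 and than 98.9%, 99.1%, 99.0% and 98.8% on Model 1 to 4. In numbers, 71 to 202 of 14145 circRNA probes were brighter than Hsp90ab1, with 71 on Control 1 and 202 on Control 4 and the Model arrays between, at 133 to 167. The means were 99.1% ± 0.39 in Control and 98.9% ± 0.11 in Model. Circular RNAs of like brightness also moved: in the brightest 10% of the circRNAs tested, where Hsp90ab1 lies, the median log2 change was 1.25, 68.1% were called higher and 2.58% lower. After quantile normalization the median of that bin was 0.19. The change of Hsp90ab1 was exceeded by 52.8% of the circRNAs in that bin, which places it near the middle of the changes of these mostly dimmer probes.

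**Figure D2:**
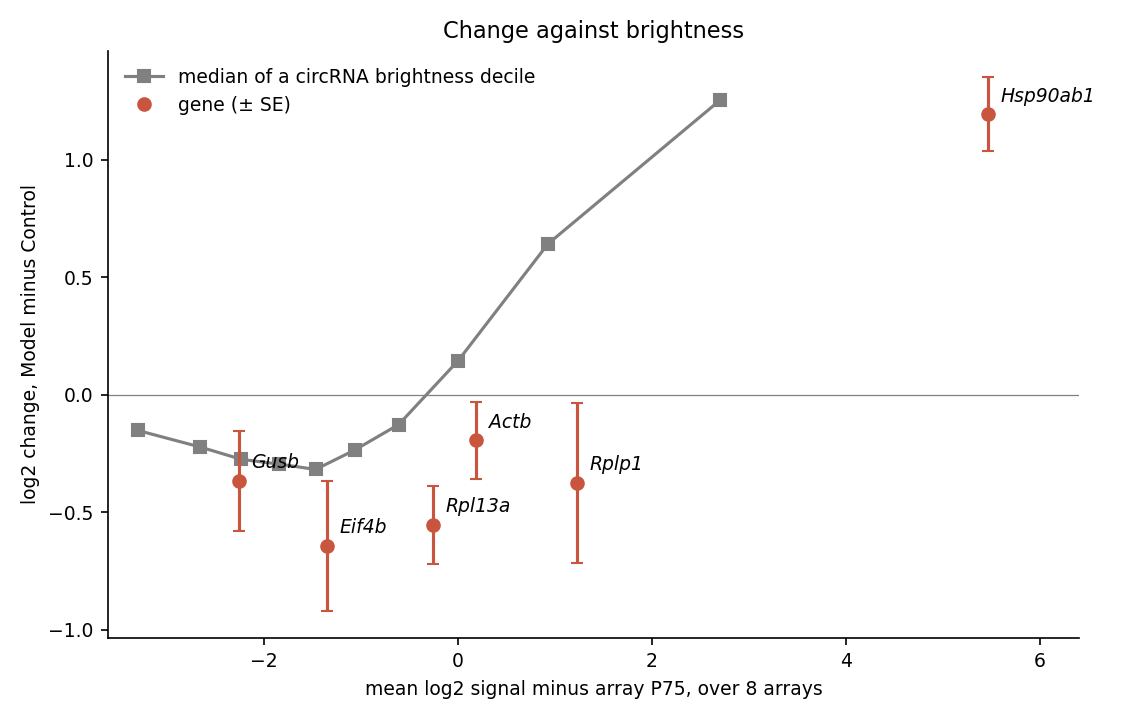
Log2 change (Model minus Control) against the mean scaled level over 8 arrays, for the median of each of 10 brightness bins of the circRNA probes (grey squares) and for the 6 genes (red, ± SE). Hsp90ab1 at 1.19 has a change near the median of the brightest bin at 1.25, but its level of 5.46 is above the median level of that bin, 2.70. Rplp1 at -0.38 lies below the 0.64 of its own bin. The change of Hsp90ab1 is -0.33 after quantile normalization.

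Eif4b encodes an initiation factor that helps unwind the leader of an mRNA before the ribosome scans it. Its scaled levels were -0.50, -0.53, -1.45 and -1.64 on Control 1 to 4 and -1.67, -1.70, -1.84 and -1.49 on Model 1 to 4. Control 1 and 2 stood above the other 6 arrays, Control 4 lay within the range of the Model arrays and Control 3 just above it. The mean was -1.03 ± 0.60 in Control and -1.67 ± 0.15 in Model (log2 change -0.64, SE 0.28, 95% interval -1.26 to -0.03, limma adjusted p = 0.0801). The gene did not pass with all arrays. Without Control replicate 4 the change was -0.85 (limma adjusted p = 0.0171). Against Control 1 alone, its highest array, the change was -1.17. It also passed with the percentile taken over probes detected on all 8 arrays, at -0.77 (limma adjusted p = 0.0419), and the change was -0.17 with normexp, a background correction that adds an offset to every signal. In the brightness bin of Eif4b, the 5th of 10 bins of circRNAs, 11.3% were called higher and 34.9% lower, with a median log2 change of -0.32.

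Rplp1 and Rpl13a encode proteins of the large ribosomal subunit. Rplp1 is one of the acidic proteins of the ribosomal stalk, which recruits elongation factors, and Rpl13a is a core protein of the subunit. Messenger RNAs of ribosomal proteins, and of some translation factors, are known for a pyrimidine tract at their start, through which growth signals control their translation. The table of RefSeq start sites (assembly GRCr8) matched 4 of the 6 genes by symbol. They are shown so that the tract of the ribosomal pair can be set beside the start sites of Hsp90ab1 and Gusb. Each window holds the 15 bases before the annotated start and the 15 from it, 5′ to 3′ on the strand of the gene, with the longest unbroken run of C and T, in any order and on that strand only, in capitals (the earliest where runs tie).
Rplp1 (chr8:71290858-71290887, minus strand): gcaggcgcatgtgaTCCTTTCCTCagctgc
Rpl13a (chr1:104748899-104748928, minus strand): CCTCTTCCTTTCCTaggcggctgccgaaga
Hsp90ab1 (chr9:22930408-22930437, plus strand): cgagtcggacgtggtccgggcccaCCCTgc
Gusb (chr12:32337292-32337321, plus strand): cgCCTTgccccagagagcgaggctaaaagg
The run was 10 bases in Rplp1, where it spans the annotated start, and 14 in Rpl13a, where it ends before it. In Hsp90ab1 and Gusb it was 4. The run of Rpl13a begins at the first base of its window, so 14 is a lower bound of its length. A run of at least 10 stands in 4.92% of the 33469 start sites in the table and in 50.0% of the 64 protein coding genes with a ribosomal protein symbol. The array did not measure translation, and no value here bears on the tract.

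The scaled levels of Rplp1 were 0.72, 0.95, 1.70 and 2.31 on Control 1 to 4 and 0.58, 1.34, 1.22 and 1.03 on Model 1 to 4. The groups overlapped: Model 1 was the lowest array, and Control 3 and 4 were above all Model arrays. The mean was 1.42 ± 0.73 in Control and 1.04 ± 0.33 in Model (log2 change -0.38, SE 0.34, 95% interval -1.13 to 0.38, limma adjusted p = 0.387), so no difference was shown. The change was 0.33 against Control 1 alone, the 1 of 21 alternatives in which its sign turned. In the 9th of 10 brightness bins, which holds Rplp1, the median log2 change of the circRNAs was 0.64, with 48.9% called higher and 11.1% lower.

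The Control arrays split in opposite ways for Eif4b and Rplp1. Control 1 and 2 were high for Eif4b and low for Rplp1, and Control 3 and 4 the reverse. The log2 ratio of Eif4b to Rplp1 was -1.22, -1.48, -3.15 and -3.95 on Control 1 to 4, against -3.06 to -2.25 on the Model arrays. By rank, Eif4b was brighter than 64.9% and 65.1% of the circRNA probes on Control 1 and 2 and than 44.0% and 40.2% on Control 3 and 4, and Rplp1 than 85.0%, 87.0%, 92.7% and 94.7% on Control 1 to 4. Control 2 to 4 share a scanning run, Control 1 was scanned in another, and the part of the run in the split was not tested. Control 3 and 4 were also the brightest arrays, with a 75th percentile of 94.7 and 127 intensity units against 69.9 and 47.9 on Control 1 and 2. The part of brightness in this split was not tested. The standard error of a mean over the 10 spots of an array was at most 0.05 for Eif4b and 0.02 for Rplp1, which covers the spots of 1 array and not the spread between arrays.

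Rpl13a had scaled levels of -0.04, -0.02, 0.06 and 0.10 on Control 1 to 4 and -0.59, -0.28, -0.71 and -0.54 on Model 1 to 4. All Model arrays were lower than all Control arrays, with a gap of 0.24 set by Control 1 and Model 2. It fell 1.47-fold on this scale, from 0.02 ± 0.07 in Control to -0.53 ± 0.18 in Model (log2 change -0.55, SE 0.17, limma adjusted p = 0.0197). It was brighter than 74.3% to 76.6% of the circRNA probes on the Control arrays and than 64.6% to 71.2% on the Model arrays, a lower place on every Model array (75.3% ± 1.08 against 68.0% ± 2.72, not tested). In the brightness bin of Rpl13a and Actb, the 8th of 10 bins of circRNAs, 29.6% were called higher and 20.7% lower, with a median log2 change of 0.14. The call of Rpl13a held in 13 of 21 alternatives. It ended without Control replicate 3 (-0.54, limma adjusted p = 0.0585), without Model replicate 1 (-0.53, limma adjusted p = 0.0541) and without Model replicate 3 (-0.49, limma adjusted p = 0.0515). It also ended with the replicate number as a block, at an unchanged -0.55 with a limma adjusted p of 0.0629, and with smaller changes of -0.23 under median centring and -0.35 against the other mRNA probes.

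Actb encodes a cytoplasmic actin of the cell skeleton. Its scaled levels were 0.35, 0.11, 0.19 and 0.50 on Control 1 to 4 and 0.07, 0.11, 0.10 and 0.09 on Model 1 to 4. The 4 Model arrays lay close together, and only Model 2 reached the lowest Control array, Control 2, both at 0.11. The mean was 0.29 ± 0.17 in Control and 0.09 ± 0.02 in Model (log2 change -0.19, SE 0.16, 95% interval -0.56 to 0.17, limma adjusted p = 0.356). The gene did not pass in any of 21 alternatives, and its change was 0.13 with median centring and 0.0061 against the other mRNA probes. It was brighter than 76.6% to 82.1% of the circRNA probes on the Control arrays and than 75.6% to 76.2% on the Model arrays.

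Gusb encodes the lysosomal enzyme β-glucuronidase. It was the gene closest to background, with a median spot intensity 1.86 to 2.70 times the local background, against 102 to 432 times for Hsp90ab1. Its scaled levels were -2.20, -1.58, -2.18 and -2.32 on Control 1 to 4 and -2.46, -2.42, -2.17 and -2.71 on Model 1 to 4. The groups overlapped through Model 3, which lay above Control 1, 3 and 4, and Control 2 stood above the other arrays. The mean was -2.07 ± 0.33 in Control and -2.44 ± 0.22 in Model (log2 change -0.37, SE 0.21, 95% interval -0.84 to 0.11, limma adjusted p = 0.181), and the change was 0.031 with normexp. In the brightness bin of Gusb, the 3rd of 10 bins of circRNAs, 9.64% were called higher and 31.7% lower, with a median log2 change of -0.28. The coefficient of variation over its 10 spots was 8.87% to 16.5% per array, against 2.69% to 8.00% for Hsp90ab1 and 1.15% to 5.12% for Rplp1.

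The size of a change, and for Actb its sign, depended on the zero point. Median centring raised the median log2 change of all probes tested by 0.32, and the median of the other mRNA probes as zero point raised it by 0.20. The 75th percentile over detected probes lowered it by 0.13. The calls over all probes, 3018 higher and 3416 lower by limma, became 4698 and 2182 with median centring, 3312 and 2020 against the other mRNA probes, 2508 and 4035 with detected probes and 2201 and 1368 with normexp. A move of the zero point shifts every gene alike, so Actb turned from below to above 0 under the former pair and Rpl13a lost its call. Hsp90ab1 kept its rise under each of these shifts of the zero point, with changes of 1.07 to 1.51, and of the 21 alternatives only quantile normalization, which gives all arrays the same distribution, turned it.

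**Figure D3:**
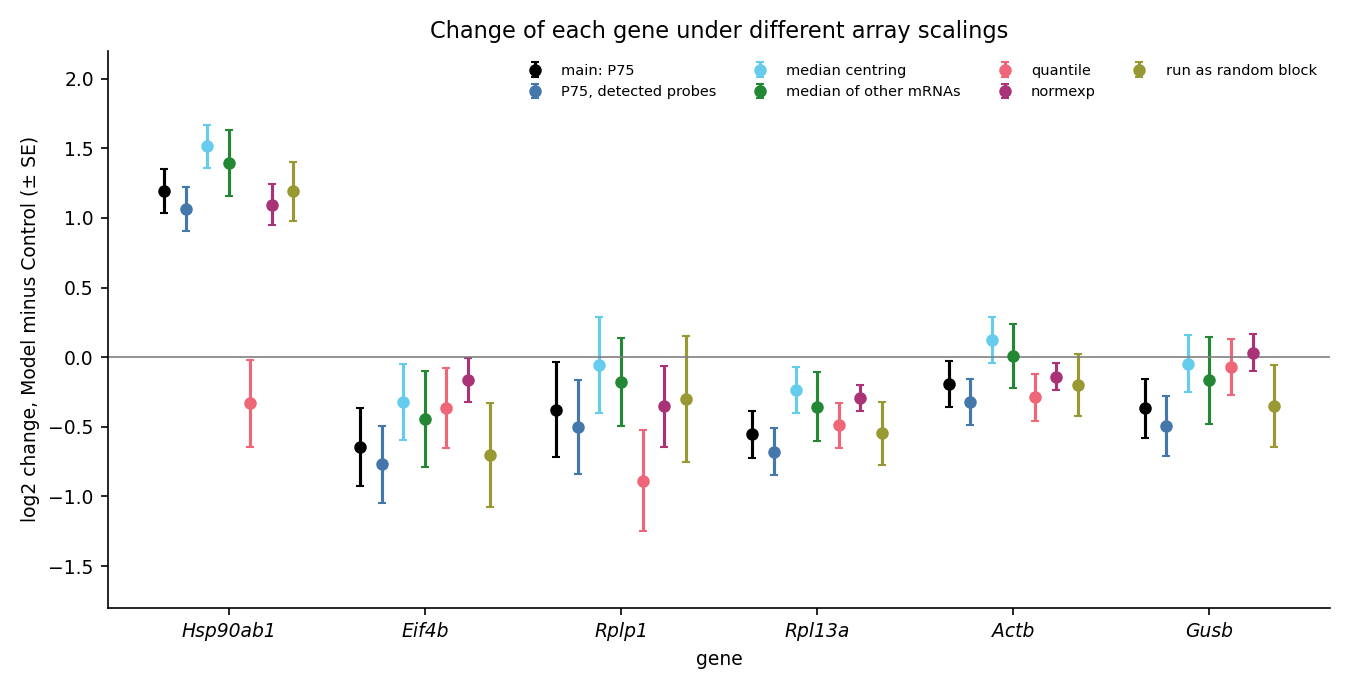
Log2 change of each gene, Model minus Control, with its SE, in the main fit (P75, the array's 75th percentile) and under other scalings, a background correction (normexp) and the scanning run as a random block. Hsp90ab1 lies between 1.07 and 1.51 except after quantile normalization, at -0.33; Actb lies on either side of 0.

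Ratios between genes on the same array do not depend on a zero point, and all 15 pairs were compared. The log2 ratio of Hsp90ab1 to Actb was 4.54, 4.71, 4.56 and 4.52 on Control 1 to 4 and 5.96, 5.95, 6.01 and 5.96 on Model 1 to 4. It was higher on every Model array, by 1.39 on average, and its SD was 0.09 in Control and 0.03 in Model. All 5 ratios that hold Hsp90ab1 differed by 1.39 to 1.84 without overlap, each at p = 0.0286 in an exact two-sided permutation test, the smallest p that 70 splits of 4 against 4 allow. After adjustment over 15 pairs this is 0.0857, so 0 pairs passed at 0.05 and 5 had an unadjusted p under 0.05. Those 5 share the same Hsp90ab1 values on the same arrays, so they are not separate evidence. Of all 1830 ratios between mRNA probes tested, 39.7% showed no overlap. After quantile normalization none of the 15 pairs was without overlap.

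Among the other 10 ratios the groups overlapped in the main processing. That of Rpl13a to Actb came nearest to separating, at -0.26 ± 0.15 in Control and -0.62 ± 0.17 in Model (difference -0.36, exact permutation p = 0.0857, adjusted p = 0.214). With normexp the ratio of Eif4b to Gusb showed no overlap (difference -0.20, exact permutation p = 0.0286, adjusted p = 0.0714). The ratio of Rplp1 to Gusb differed by -0.0097 between groups, but its SD of 0.95 in Control and 0.34 in Model leaves room for a difference. The ribosomal pair was not locked together: the log2 ratio of Rplp1 to Rpl13a was 0.76, 0.97, 1.64 and 2.21 on Control 1 to 4 and 1.17 to 1.93 on the Model arrays.

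As references, the genes ranked in different orders by different measures. Over all 8 arrays Actb had the lowest SD of the scaled level, at 0.15, the lowest of the 61 mRNA probes tested, and 1.06% of all probes tested had a lower one. Rpl13a followed at 0.32 (rank 14) and Gusb at 0.33 (rank 15), then Eif4b at 0.53 (rank 37), Rplp1 at 0.56 (rank 44) and Hsp90ab1 at 0.64 (rank 48). The median mRNA probe had 0.49. Within groups the order changed, since the spread of Hsp90ab1 lay between the groups: its SD there was 0.08, the lowest of the 61, followed among the 6 by Actb at 0.12 (rank 3) and Rpl13a at 0.14 (rank 6). Rplp1 stood at 0.57 (rank 55). The limma SE of the log2 change of Hsp90ab1, which also draws on the spread of other probes, was 0.16 in the main fit. It was 0.16 with median centring and with the percentile over detected probes, and 0.15 with normexp. It was 0.24 against the other mRNA probes, 0.26 in eBayes with trend and robust, and 0.31 after quantile normalization. Without Control replicate 2 the SD of Gusb over the arrays was 0.19, and that of Rpl13a 0.33. Control 4 alone accounted for much of the spread of Actb, whose SD was 0.099 without that array. Actb also lay near the zero point of this scale, at 0.07 to 0.50, and the part of this in its low SD was not tested. No test was made of these orders.

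**Figure D4:**
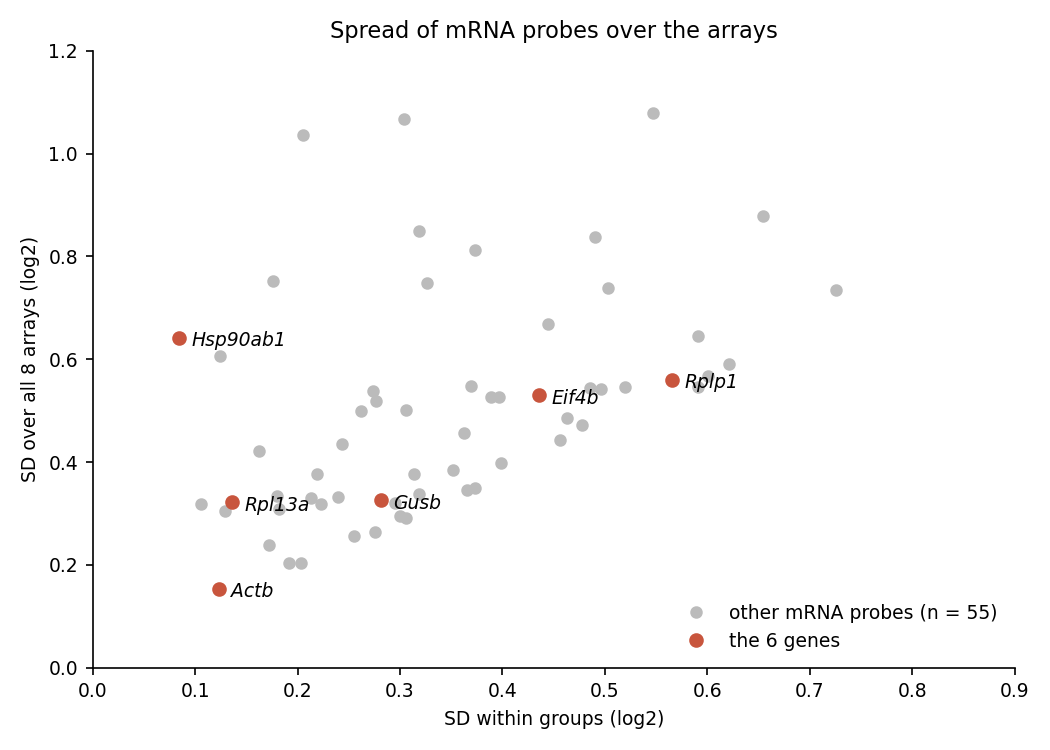
SD of the scaled level over all 8 arrays against the SD within groups (root mean of the Control and Model variances), in log2 units, for the 6 genes (red) and 55 other mRNA probes tested (grey). Actb is lowest on the vertical axis at 0.15, and Hsp90ab1 is lowest on the horizontal axis at 0.08 but at 0.64 on the vertical axis.

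By the ratios, a measure that uses no zero point, the mean SD over the 5 ratios that hold a gene was 0.47 for Actb, 0.49 for Rpl13a, 0.53 for Gusb, 0.68 for Eif4b, 0.70 for Rplp1 and 0.92 for Hsp90ab1. The steadiest single ratio was that of Rpl13a to Actb, with an SD of 0.24 over 8 arrays. Within groups the same mean was lowest for Hsp90ab1, at 0.31, followed by Actb at 0.32, Rpl13a at 0.34, Gusb at 0.43, Eif4b at 0.57 and Rplp1 at 0.65. That order did not hold in other processing: after quantile normalization and with normexp, the mean within groups was lower for Actb and Rpl13a than for Hsp90ab1. The SD within groups of the ratio of Hsp90ab1 to Actb was 0.065 in the main processing and 0.56 after quantile normalization. In the main processing, Actb and Rpl13a thus had the lowest means over all arrays but not within groups. The fall of Rpl13a passed the test, and the change of Actb did not.

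Taking a gene as the reference changed how many circRNAs were called. It lowers the log2 change of every circRNA by the log2 change of that gene. The side to which the balance of calls moved thus follows from the changes given above and is no separate result. With the 75th percentile as zero point, limma called 6404 of 13585 circRNA probes, or 47.1%, with 3007 higher and 3397 lower in Model. With Actb it called 6064 (44.6%), 3689 higher and 2375 lower. With Gusb it was 5525 (40.7%), 3989 higher and 1536 lower, and with Eif4b 5224 (38.5%), 4678 higher and 546 lower. Rpl13a as reference gave 7164 calls (52.7%), 5815 higher and 1349 lower. Under Actb, Gusb, Eif4b and Rpl13a the balance was thus on the higher side, by the most under Eif4b, where 89.5% of the calls were higher. Single arrays moved the smaller side. With Eif4b the lower calls numbered 881 without Control replicate 1, 307 without Control replicate 3, and 343, 344 and 313 without Model replicates 1, 2 and 4. With Gusb they numbered 1002 without Control replicate 3.

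The extremes came from Hsp90ab1 and Rplp1. With Hsp90ab1 as reference 10572 circRNAs were called (77.8%), 479 higher and 10093 lower, and the median circRNA stood at -1.22. With Rplp1, whose own spread then enters every circRNA, 2402 were called (17.7%), 1815 higher and 587 lower. That count rose to 4022 without Control replicate 1 and 3775 without Control replicate 4. It fell to 1153 without Control replicate 3, 1183 without Model replicate 1, 1516 without Model replicate 2, 1588 without Model replicate 3 and 1124 without Model replicate 4. The balance moved too: without Control replicate 4 the calls were 2081 higher and 1694 lower. The mean of the 6 genes as reference gave 6371 calls (46.9%), 3679 higher and 2692 lower.

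**Figure D5:**
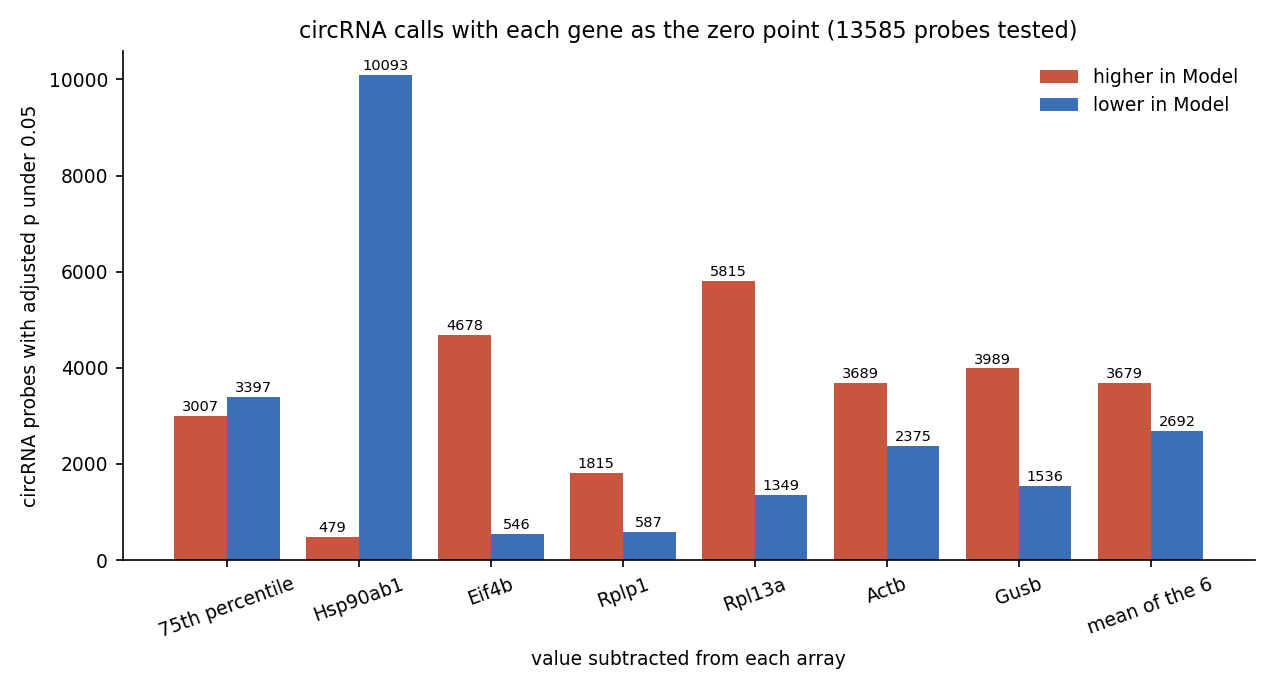
Number of circRNA probes with a limma adjusted p under 0.05, higher (red) and lower (blue) in Model, of 13585 tested, when the array's 75th percentile, 1 of the 6 genes or their mean is subtracted from each array. Hsp90ab1 as reference leaves 479 higher and 10093 lower; Eif4b leaves 4678 and 546.

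Of 22 genes listed as common references, 10 were matched by symbol and tested, on 11 probes, and 5 of the 6 genes are among them. By limma, 1 of these probes was called higher, that of Hsp90ab1 (turned by quantile normalization), 4 were called lower and 6 were not called. That is at the background, where 45.9% of the mRNA probes and 47.1% of all probes were called, 31.1% and 25% lower. The median log2 change of the list was -0.38, against -0.31 for the mRNA probes and -0.03 for all probes. The lower ones were Rpl13a, the MHC light chain gene B2m at -0.82 (SE 0.21) and the lactate dehydrogenase gene Ldha at -1.37 (SE 0.18) and -0.74 (SE 0.17) on its 2 probes. The glycolytic gene Pgk1 at -0.38 (SE 0.24), the purine salvage gene Hprt1 at 0.48 (SE 0.32) and the respiratory chain gene Sdha at 0.54 (SE 0.31) did not pass. Their SDs over the 8 arrays were 0.38, 0.55 and 0.54, against 0.15 for Actb. Of the 12 custom reference probes with an accession, 10 have a symbol. Those without one could not enter the list, and their SDs were 0.84 and 0.74. With median centring 3 of the 11 probes were called, and 2 against the other mRNA probes. The signs of B2m, Ldha, Pgk1, Hprt1 and Sdha were the same under quantile normalization, median centring, the percentile over detected probes, the other mRNA probes as zero point and normexp. Of ribosomal, initiation, elongation and chaperone genes, the list of which is defined by symbol, Hsp90ab1, Eif4b, Rplp1 and Rpl13a are the 4 tested. Of these 2 were called, 1 higher and 1 lower, beside the 45.9% of mRNA probes, and their median log2 change was -0.47.

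Likeness between profiles was measured as the root mean square difference between levels centred on their own mean over the 8 arrays, against 32 other mRNA probes with a symbol. The profile of Rplp1 was closest to that of the phospholipase gene Pld1 (0.14) and then Pgk1 (0.22), where the median over the 32 probes was 0.60. Rpl13a was closest to Enpp1, whose product makes pyrophosphate, at 0.16 and to a probe of Ldha at 0.20, with a median of 0.48. Actb was closest to Cse1l, a nuclear export receptor gene, at 0.18 and to the pyruvate dehydrogenase kinase gene Pdk3 at 0.19, with a median of 0.42.

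Eif4b was nearest to the cytochrome P450 gene Cyp2e1 (0.24) and to Napepld (0.27), an enzyme of lipid signalling, with a median of 0.64. Gusb was nearest to Enpp1 and Cse1l, both at 0.27, with a median of 0.55. Hsp90ab1 was nearest to the synaptic scaffold gene Dlg4 (0.31) and the RNase P subunit gene Pop7 (0.33), with a median of 0.84. These distances describe 8 arrays that share their processing, and a probe of small spread is close to any other of small spread.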

How the data were processed

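Per the file headers, the authors used Agilent Feature Extraction 11.0.1.1. Its processed signal is a spot intensity from which background has been subtracted and a spatial trend removed, with no scaling between arrays. The deposited median intensities of spot and local background served for normexp (offset 50). A deposited table of circRNA values holds no mRNA probe and was not used. Non-uniform spots were dropped, log2 values averaged per probe, and the array's 75th percentile over probes that are not controls subtracted. Probes well above background (at least 0.5 of their spots) on at least 4 of 8 arrays entered limma 3.58.1 under R 4.3.3 (lmFit, eBayes), and p-values of mRNA and circRNA probes were adjusted together (Benjamini-Hochberg). For the counts with a gene as zero point, circRNA probes were fitted and adjusted on their own. Symbols came from RefSeq (GRCr8) by accession for 39 of 62 mRNA probes. Steps were tested on simulated data.

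The 6 genes and the gene lists were chosen with earlier results of these data known. By the rule for naming, the other genes named are those of the lists and the 2 most like each of the 6. The alternatives were other scalings, background correction, filters, spot summaries, eBayes with trend and robust, replicate and run blocks, and leaving out arrays. The zero point at the median of the other mRNA probes was added after seeing the data.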

Additional observations from a re-analysis of the deposited data

How the results depend on the processing

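Over 21 alternatives each, the log2 change kept its sign and its side of the threshold in 20 for Hsp90ab1, Rplp1 and Gusb, 19 for Actb, 18 for Eif4b and 13 for Rpl13a. The sign turned with quantile normalization for Hsp90ab1 (-0.33), against Control 1 alone for Rplp1 (0.33), with median centring (0.13) and against the other mRNA probes (0.0061) for Actb, and with normexp for Gusb (0.031). Eif4b passed by limma with the percentile over detected probes (-0.77) and against Control 1 alone (-1.17). Rpl13a lost its call with median centring (-0.23), against the other mRNA probes (-0.35), against Control 1 alone (-0.49), with run as a random block (-0.55) and with the replicate block (-0.55). Leaving out 1 array gave 1.15 to 1.24 for Hsp90ab1, -0.85 to -0.47 for Eif4b, -0.61 to -0.08 for Rplp1, -0.64 to -0.49 for Rpl13a, -0.25 to -0.12 for Actb and -0.45 to -0.20 for Gusb. The cause of these moves was not tested.

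The replicate numbers did not pair the arrays: deviations of same-numbered arrays correlated at 0.061, -0.039, 0.19 and -0.18 over probes, and of the 8 arrays only Control 3 correlated best with its own number. Over all probes the replicate block gave 5964 limma calls against 6434 without it, the random run block 4056 and normexp 3569. The replicate block ended the call of Rpl13a and of no other of the 6 genes. The exact paired test of the ratios was not run for that reason, and the deposited value table holds none of the genes.

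The exact test of the 15 ratios gave 0 adjusted calls in the 11 alternatives too, which says nothing of stability, since its smallest p is 0.0286 with all arrays and larger with 1 left out. Ratios without overlap numbered 0 with quantile normalization, 6 with normexp and 5 to 6 with 1 array left out. The SD over arrays moved by more than its jackknife error for Hsp90ab1 (0.50 with quantile normalization, 0.81 with median centring, 0.58 with the percentile over detected probes, 0.76 against the other mRNA probes), Eif4b (0.24 with normexp), Rpl13a (0.18 with median centring, 0.39 with the percentile over detected probes, 0.17 with normexp), Actb (0.21 with quantile normalization) and Gusb (0.18 with normexp). With 1 array left out Actb ranged from 0.099 to 0.17. With 1 array left out, calls with Rplp1 as zero point ranged from 1124 to 4022; for the other zero points the total number of calls stayed within 1.5 times. The reference list gave 3 calls with median centring and 2 against the other mRNA probes. The translation and chaperone list, with 2 calls in 4, gave 1 with quantile normalization, median centring, the replicate block, the run block and the other mRNA probes as zero point, and 1 to 3 with 1 array left out. The spot intensity was 1.86 to 2.70 times the local background for Gusb and 2.17 to 5.08 times for Eif4b.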
